A study of Mus musculus and Rattus norvegicus with 96 samples.

Results

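Directly fixed rat liver was compared with directly fixed rat lung, 12 of the 96 samples of the series. The 6 liver libraries came from male F344 rats whose tissue was put straight into 10% neutral buffered formalin for 18 to 24 h before embedding in paraffin. The 6 lung libraries came from male WKY rats whose tissue stayed in the same fixative for 1 year before embedding. All of these rats were vehicle controls, and the labels give no age. Tissue, strain and fixation time changed together between the groups and cannot be told apart in any value below. For reference, frozen tissue (FR) and tissue frozen first and fixed afterwards for 18 to 24 h (FR > FFPE) were available from the same organs and strains, as 12 libraries of FR > FFPE and 11 usable libraries of FR. The FR libraries are titled as RNA and the others as FFPE, which was lysed and deparaffinized. The labels describe each library as 1 sample without naming animals, so p-values measure the spread between these samples, which may be partly technical.

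The assay was TempO-Seq, in which a pair of detector oligos anneals side by side on the target RNA, is ligated and is then counted by sequencing. Because each gene is read by its own short probes, levels of different genes were not ranked against each other, and every comparison below is of 1 gene between the tissues. Values are CPM, the counts of a gene relative to the total of its library, after TMM scaling, which corrects for a few very abundant RNAs, and n = 6 per tissue unless stated. Differential expression is given as log2(liver / lung), positive where liver was higher, and a gene was called where edgeR's quasi-likelihood test gave an adjusted p under 0.05 and the fold change was at least 2.

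Liver is built mainly of hepatocytes, which secrete most plasma proteins, make bile acids, run the urea cycle and clear foreign compounds through cytochrome P450 and conjugating enzymes. Lung is a mixture of alveolar type 1 and type 2 cells, airway epithelium, dense capillary endothelium, smooth muscle, fibroblasts, resident macrophages and circulating blood cells. Formalin links RNA to protein and fragments it, and short-probe assays were developed in part to read such material.

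Depth was low and uneven. Totals ran from 139477 to 889125 counts in liver and from 226751 to 1634577 in lung, against 3040907 to 3970188 in frozen liver, and the difference between the directly fixed tissues was not significant (exact two-sided permutation test over 924 splits, p = 0.0996, adjusted p = 0.0996). Before TMM scaling, 3 counts correspond to 3.37 to 21.5 CPM in a liver library and to 1.84 to 13.2 CPM in a lung library. TMM-scaled CPM are these values divided by the library's TMM factor. The factors ran from 0.618 to 1.21 in liver and from 0.970 to 1.56 in lung. The shallowest library of each tissue, liver replicate 82 and lung replicate 63, stood apart from its group in many genes of the other tissue. Some of the ratios they change are given with and without both. More genes had at least 1 count in lung, 2466 ± 50.96 (SD, n = 6), than in liver, 2364 ± 37.1 (exact permutation test, p = 0.00649, adjusted p = 0.0130). With all 12 libraries thinned to the smallest total, the means were 2310.5 in lung and 2224.7 in liver (exact permutation test, p = 0.0303, adjusted p = 0.0404). The thinned result often lost significance with 1 library left out, as given below. The 10 most counted genes took 36.2% ± 3.77 of liver counts and 28.1% ± 2.25 of lung counts (exact permutation test, p = 0.00649, adjusted p = 0.0130). In 8 genes, Alb, Apoa1, Apoh and Fga among them, every count was a whole multiple of 1 number per gene. These 8 genes took 17.9% to 26.7% of each liver library and 0.196% to 0.588% of each lung library. The share of the 10 most counted genes was not tested with these counts divided.

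Tissue markers were checked first. Alb, the main plasma protein made by hepatocytes, was measured at 57598 to 197856 CPM in liver, with a median of 116509 CPM. In lung, Alb ran from 0 to 946 CPM with a median of 49.1 CPM, and the highest value belonged to lung replicate 63. Lamp3, a lysosomal membrane protein found in the surfactant-storing bodies of alveolar type 2 cells, ran from 1670 to 3765 CPM in lung and from 2.79 to 41.6 CPM in liver. The groups did not overlap in either gene. Several defining markers gave no test of the label, since they had no count in any rat library: 11 of the 12 alveolar type 2 markers matched in the tables, the surfactant gene Sftpc among them, 11 of the 12 airway markers and all 8 markers of liver endothelium and Kupffer cells.

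Of 2131 genes tested, 437 were higher in liver and 649 were higher in lung, so that 51% were called, 20.5% toward liver and 30.5% toward lung. The 2 groups of 6 did not overlap in 990 genes, 46.5% of those tested, and 914 of these were called. Differences toward liver were larger, with a median log2 value of 2.40 among the called genes and 121 genes over 16-fold. Toward lung the median was −1.79, and 61 genes passed 16-fold. The median over all tested genes was −0.32, so the typical gene was read slightly higher in lung on this scale.

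This split between the tissues rested on the scaling. With total counts in place of TMM it was 300 toward liver and 936 toward lung, with a median over all genes of −0.86, and with DESeq2 it was 594 and 535, with a median of 0.00085. Adding the other 4 rat groups to the fit gave 580 and 556. Calls in the same direction under TMM, total counts, totals without the genes over 1% of any library, and DESeq2 numbered 814, of which 300 were toward liver and 514 toward lung. Small differences near the 2-fold limit should be read against this shift, and the gene groups below are given beside the −0.32 median of all genes.

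**Figure D1:**
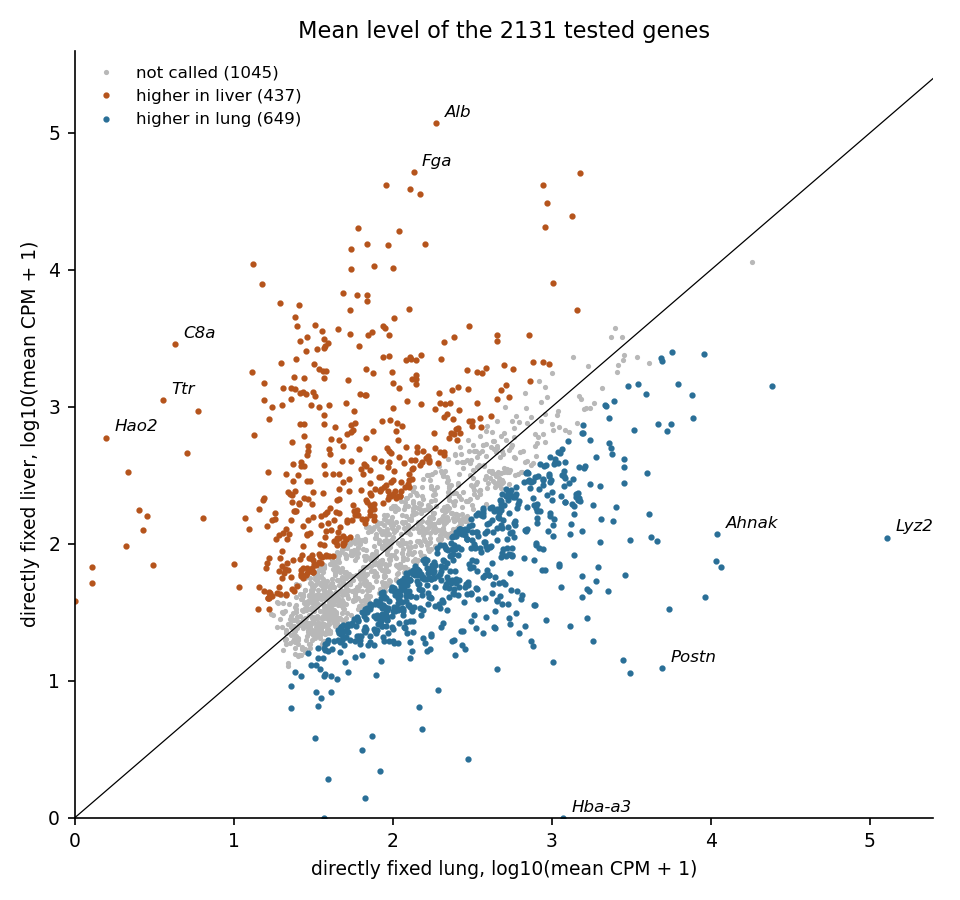
Mean level of each tested gene in directly fixed lung (x axis) and directly fixed liver (y axis), as log10 of the mean CPM plus 1 over 6 libraries. Orange points were called higher in liver (437), blue points higher in lung (649), grey points were not called, and the line marks equal levels. Genes more than 16-fold from the line number 121 on the liver side and 61 on the lung side.

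The 12 genes with the largest ratios toward liver were ranked by the ratio of the mean CPM of liver to that of lung. They ran from a ratio of 1022 for Hao2 to 285 for Tf and included several secreted plasma proteins. Hao2, a peroxisomal hydroxyacid oxidase, ran from 274 to 827 CPM in liver, while 1 count in all was found in the 6 lung libraries. Against the pooled counts of the 6 lung libraries, in which deeper libraries weigh more, its ratio was 3882, with a 95% counting interval of 697 to 153346. Tf, the iron carrier transferrin, ran from 214 to 423 CPM in liver against 2 counts in all in lung, a pooled ratio of 1081 with an interval of 299 to 8928. Both Tf counts and the Hao2 count were in lung replicate 63. Such ratios rest on the few lung counts, and counting intervals cover counting error only.

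C8a, a chain of the complement membrane attack complex, ran from 2034 to 3598 CPM in liver, with a median of 2903 CPM. In lung its range was 0 to 17.5 CPM, with a median of 0.279 CPM and the highest value in replicate 63. The difference was 11.07 ± 0.57 (log2 ± SE, edgeR adjusted p = 9.57e-13). Orm1, an acute phase plasma glycoprotein, ran from 4485 to 9419 CPM in liver and from 0 to 77.1 CPM in lung, a difference of 10.21 ± 0.89. Liver replicate 82 was the lowest liver library and lung replicate 63 the highest lung library for this gene.

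The apolipoproteins Apoc1 and Apoa1 and the phospholipid-binding plasma glycoprotein Apoh behaved alike. Apoc1 was at 26521 to 55725 CPM in liver and at 18.2 to 368 CPM in lung, a difference of 9.03 ± 0.80. Apoa1, the main protein of high-density lipoprotein, was at 20526 to 54106 CPM in liver and at 45.8 to 392 CPM in lung. Apoh was at 12907 to 26957 CPM and at 9.16 to 196 CPM. In all 3 genes the ranges were far apart, and the top lung value was that of replicate 63.

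Fga, the fibrinogen alpha chain, had 24957 to 64855 CPM in liver and 50.3 to 448 CPM in lung. Ttr, the carrier of thyroid hormone and retinol, had 499.6 to 1916 CPM in liver and 0 to 7.01 CPM in lung. Serpina3c, of the serine protease inhibitors, had 3592 to 7591 CPM in liver and 8.37 to 31.5 CPM in lung, where replicate 63 again was highest. The remaining gene of the 12, RGD1561812, had 6305 to 15428 CPM in liver and 1.67 to 52.5 CPM in lung. All 12 genes were called under the 4 scalings and in each of the 12 fits that left out 1 library.

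The size of these ratios depended on lung replicate 63 and liver replicate 82. Without both libraries, the ratio of the mean CPM rose from 629 to 3719 for Alb, from 882 to 6594 for C8a, from 558 to 5850 for Orm1 and from 464 to 1327 for Apoc1. It changed little for Serpina3c, from 309 to 386. The ratio also rose for the others of the 12, for example from 914 to 2954 for RGD1561812 and from 285 to 772 for Tf. Among the 12 genes toward lung, the ratio of lung to liver fell only for Lyz2 and Nexn. It rose from 212 to 378 for Lamp3. Without these 2 libraries 551 genes were called toward liver and 569 toward lung, an alternative added after seeing the data. Lung replicate 63 held the highest lung value for 151 of the 437 genes higher in liver. Liver replicate 82 held the highest liver value for 211 of the 649 genes higher in lung. Lung replicate 61 followed with 128 genes and liver replicate 83, the deepest liver library, with 137. The part of depth in this was not tested.

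The largest ratios toward lung were led by genes of macrophages, blood and matrix. Lyz2, the lysozyme of macrophages and granulocytes, took between 13.4% and 18.3% of each lung library and ran from 96406 to 189125 CPM there. In liver Lyz2 ran from 83.3 to 133 CPM, a difference of −10.18 ± 0.53 (log2 ± SE, edgeR adjusted p = 1.02e-12). Hba-a3, an alpha globin of red blood cells, ran from 737 to 1571 CPM in lung and had no count in any of the 6 liver libraries. Its mean was also 0 CPM in FR liver and in FR > FFPE liver. Hbb, beta globin, ran from 1213 to 1874 CPM in directly fixed liver. All liver groups came from the same strain, so strain and tissue cannot be told apart in the absence of Hba-a3. Against a chosen floor of 3 counts over the liver group, the ratio of Hba-a3 was 781. The 95% counting interval of 0 counts set its lower limit at 635-fold.

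Postn, a matricellular protein of fibroblasts, ran from 3936 to 6469 CPM in lung and from 2.79 to 23.8 CPM in liver, a difference of −8.88 ± 0.37. Lamp3 differed by −8.02 ± 0.42. S100a6, a calcium-binding protein, ran from 6531 to 14896 CPM in lung and from 46.9 to 83.3 CPM in liver. Ahnak, a very large scaffold protein, ran from 5690 to 13419 CPM in lung and from 93.7 to 125 CPM in liver. None of these groups overlapped, and the liver libraries lay within a narrow range for S100a6 and Ahnak. Nexn, an actin-binding protein, was at 215 to 353 CPM in lung, and 4 of the 6 liver libraries had no count of it.

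RT1-CE5 and RT1-CE4, class I major histocompatibility genes, differed by −8.57 ± 0.43 and −7.97 ± 0.39. RT1-CE5 ran from 2128 to 3973 CPM in lung and from 0 to 23.8 CPM in liver. Class I genes differ between rat strains and have close copies, and the tissues came from different strains, so strain and tissue cannot be told apart in these values. Igh-6, the constant region of immunoglobulin M heavy chain, ran from 812 to 3121 CPM in lung and from 4.83 to 41.6 CPM in liver, and like the globins it belongs to a family of similar genes. The unnamed gene models AABR07060872.1 and LOC102553715 differed by −7.43 ± 0.37 and −7.17 ± 0.38.

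In the rn6 coordinates of the tables, Alb lies at chr14:19176277-19191864, C8a at chr5:124348461-124403196 and Fga at chr2:182006242-182013764. Lyz2 lies at chr7:60335969-60341265, Postn at chr2:143656793-143688088 and Hba-a3 at chr10:15577249-15577978. RT1-CE5 and RT1-CE4 share chromosome 20, and the range given for RT1-CE4, chr20:4673658-4935888, contains that of RT1-CE5, chr20:4892702-4896992. Probe positions within these genes are not given in the tables.

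**Figure D2:**
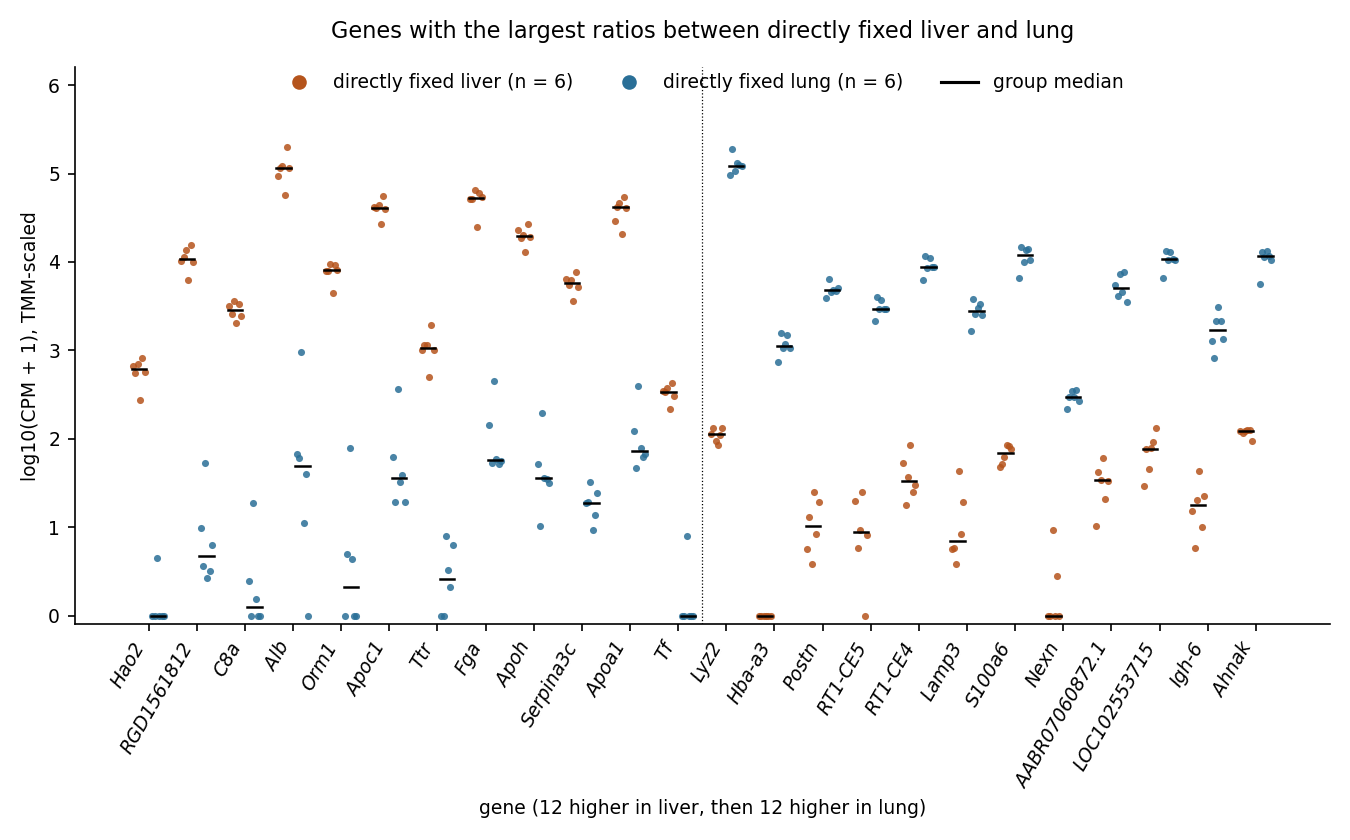
CPM (log10 of CPM plus 1, TMM-scaled) of the 12 genes with the largest ratio toward liver and the 12 toward lung, in each of 6 directly fixed liver libraries (orange) and 6 directly fixed lung libraries (blue), with a line at each group median. No gene overlaps between the groups, and a single blue point, lung replicate 63, sits above the other lung points for Alb, C8a, Orm1, Apoc1, Fga, Apoh and Apoa1.

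Hepatocyte markers separated the tissues almost completely. Of 24 tested markers, 22 were higher in liver under each of the 4 scalings and none was higher in lung, with a median log2 difference of 6.22 beside −0.32 for all genes. Cyp7a1, the rate-limiting enzyme of bile acid synthesis, named after its values were seen, was not called by edgeR, at 0.94, while DESeq2 called all 24 markers, Cyp7a1 included. Hnf4a, a master regulator of hepatocyte genes, ran from 226 to 465 CPM in liver and from 14.01 to 62.8 CPM in lung.

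Markers of other liver cells were few and went the other way. All 3 tested cholangiocyte markers were higher in lung. Krt7 and Krt19, keratins of simple epithelium that lung epithelium also makes, were at 407 to 1157 CPM and 356 to 800 CPM in lung against 0 to 50.4 CPM and 21.7 to 41.6 CPM in liver. Spp1, osteopontin, differed by −1.14 and lost its call with DESeq2. Hgf, the hepatocyte growth factor and the sole stellate cell marker with counts, was at 336 to 577 CPM in lung and 125 to 239 CPM in liver.

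Endothelial and mesenchymal markers were higher in lung. Of 5 vascular endothelial markers 4 were higher in lung, led by Vwf, the platelet-binding factor of endothelium, at 1452 to 2768 CPM in lung against 19.5 to 72.9 CPM in liver. Edn1, the vasoconstrictor endothelin, and Eng, a TGF-beta co-receptor, differed by −3.74 and −2.40. Nos3, named after its values were seen, was the exception, at 0.88 without a call by edgeR, and was called toward liver by DESeq2. Cyp2f4, the sole airway marker with counts, likewise named after its values were seen, was at 0.92 without a call by edgeR, and DESeq2 also called it toward liver. Cav1, a caveolar protein abundant in alveolar type 1 cells and endothelium, ran from 790 to 2464 CPM in lung and from 11.2 to 43.2 CPM in liver.

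Of 13 tested markers of smooth muscle and fibroblasts, 10 were higher in lung and 1 in liver, with a median of −2.15. Under all 4 scalings 8 were higher in lung and none in liver. Mgp, an inhibitor of calcification, was at 564 to 833 CPM in lung and 13.9 to 31.4 CPM in liver. Tagln, an actin-binding protein of smooth muscle, was at 884 to 3892 CPM in lung and 83.3 to 209 CPM in liver. Fn1, fibronectin, which hepatocytes release into plasma, was higher in liver by 1.21, and this call was lost with total counts.

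Macrophage, granulocyte and red cell genes were mostly higher in lung, and lymphocyte genes less clearly. Of 9 tested markers of macrophages and granulocytes 6 were higher in lung and none in liver. S100a9, a calprotectin subunit of neutrophils, was at 871 to 1748 CPM in lung and 46.9 to 131 CPM in liver, and Itgax, an integrin of alveolar macrophages and dendritic cells, was at 61.8 to 94.8 CPM and 4.69 to 35.7 CPM. Of 8 lymphocyte markers 3 were higher in lung, a share of 37.5% beside 30.5% of all genes toward lung, and 1 was under all 4 scalings. Lck and Cd3d of T cells differed by −1.18 and −1.25 and lost their calls with DESeq2. Both erythroid genes were higher in lung: Hbb, beta globin, had 14558 to 32425 CPM in lung and 1213 to 1874 CPM in liver, and Alas2, the heme synthesis enzyme of red cell precursors, differed by −2.18. In bulk tissue, fewer cells of a type and less RNA per cell cannot be told apart.

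Drug metabolism genes were mostly higher in liver. Of 23 tested cytochrome P450 genes 15 were higher in liver and 2 in lung, with a median of 3.23. Cyp2b3, Cyp2c11 and Cyp2c13, P450 enzymes of rat liver, were at 1624 to 3396 CPM, 726 to 1572 CPM and 1291 to 2156 CPM in liver. In lung they were at 10.5 to 52.6 CPM, 9.84 to 27.7 CPM and 15.7 to 58.4 CPM. These genes have close copies within the Cyp2 families, so reads may be shared among them. Cyp26b1, which clears retinoic acid, went the other way, with 149 to 456 CPM in lung and 27.3 to 83.3 CPM in liver, and Cyp1b1 differed by −1.09 with overlapping groups, a call that did not hold under all 4 scalings and was made in 4 of the 12 fits that left out 1 library.

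Of 10 tested conjugating enzymes 7 were higher in liver and 1 in lung, and under all 4 scalings 5 and 1. The sulfotransferases Sult1c3 and Sult1b1 differed by 6.45 and 5.67, and the glutathione transferase Gsta2 by 6.06. Gstp1, another glutathione transferase, differed by −1.87, with 179 to 250 CPM there and 32.8 to 83.3 CPM in liver. Of 16 transporters 9 were higher in liver and 1 in lung. Slc10a1, the bile acid uptake carrier of hepatocytes, was at 274 to 663 CPM in liver and 1.09 to 7.01 CPM in lung, a difference of 7.09, and the organic anion carrier Slc22a8 differed by 4.91. The efflux pump gene Abcb1a was at 168 to 432 CPM in lung and 58.3 to 122 CPM in liver.

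Intermediary metabolism followed the same direction. In amino acid metabolism and the urea cycle 15 of 18 tested genes were higher in liver and 1 in lung, with a median of 5.08. Bhmt of methionine synthesis and Otc of the urea cycle had 1386 to 3330 CPM and 1927 to 4068 CPM in liver. Their lung ranges were 6.55 to 35.03 CPM and 20.0 to 87.6 CPM. Asns, asparagine synthetase, was the gene higher in lung, with 103 to 161 CPM there and 0 to 24.2 CPM in liver.

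In fatty acid oxidation 18 of 22 tested genes were higher in liver and none in lung, though with a median of 1.54 the differences were smaller. Under all 4 scalings 10 of the 18 calls held. Among the leading genes were Bdh1 of ketone body metabolism, at 4.79, and catalase, Cat, at 4.19. Among 15 genes of cholesterol and bile acid metabolism 9 were higher in liver, led by Dhcr7 of cholesterol synthesis at 4.05 and the bile salt export pump Abcb11 at 3.61, and 5 of these calls held under all 4 scalings. Among 15 genes of glucose metabolism 8 were higher in liver and 3 in lung. Of the pyruvate kinases, Pklr, the liver form, differed by 5.84. Pkm, the form of most other tissues, differed by −1.33 with overlapping groups, at 23.6 to 124 CPM in lung and 7.29 to 71.4 CPM in liver. Aldoa of glycolysis differed by −1.38. The glucose transporter Slc2a1 differed by −1.20, and the gluconeogenic enzyme Pck1 by 6.76.

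Of 37 tested complement and coagulation genes 28 were higher in liver and 4 in lung. Those higher in lung included 3 of vessel wall and tissue origin. Besides Vwf they were Thbd, the thrombin receptor thrombomodulin, at 206 to 505 CPM in lung and 4.69 to 36.0 CPM in liver, and F3, tissue factor, at 361 to 627 CPM and 32.8 to 95.2 CPM. F2, prothrombin, had 10902 to 26278 CPM in liver and 31.4 to 364 CPM in lung. Of 17 acute phase genes 14 were higher in liver, among them Serpina1, alpha-1 antitrypsin, at 7.46. The exception was Lcn2, a siderophore-binding protein of epithelium and neutrophils, with 1108 to 2204 CPM in lung and 18.8 to 55.5 CPM in liver.

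Among 18 tested nuclear receptor genes 8 were higher in liver and 3 in lung, and under all 4 scalings 4 and 3. Their share of calls was 61.1% beside 51% of all genes. Besides Hnf4a the leading genes toward liver were the xenobiotic receptors Nr1i3 (CAR), at 126 to 268 CPM in liver and 3.503 to 27.7 CPM in lung, and Nr1i2 (PXR), at 107 to 286 CPM and 14.01 to 30.7 CPM. Toward lung they included the clock repressor Nr1d1 at −3.35 and Pparg, a regulator of lipid storage, at −2.49. Nr1d1 varies with the time of day, which the labels do not give.

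**Figure D3:**
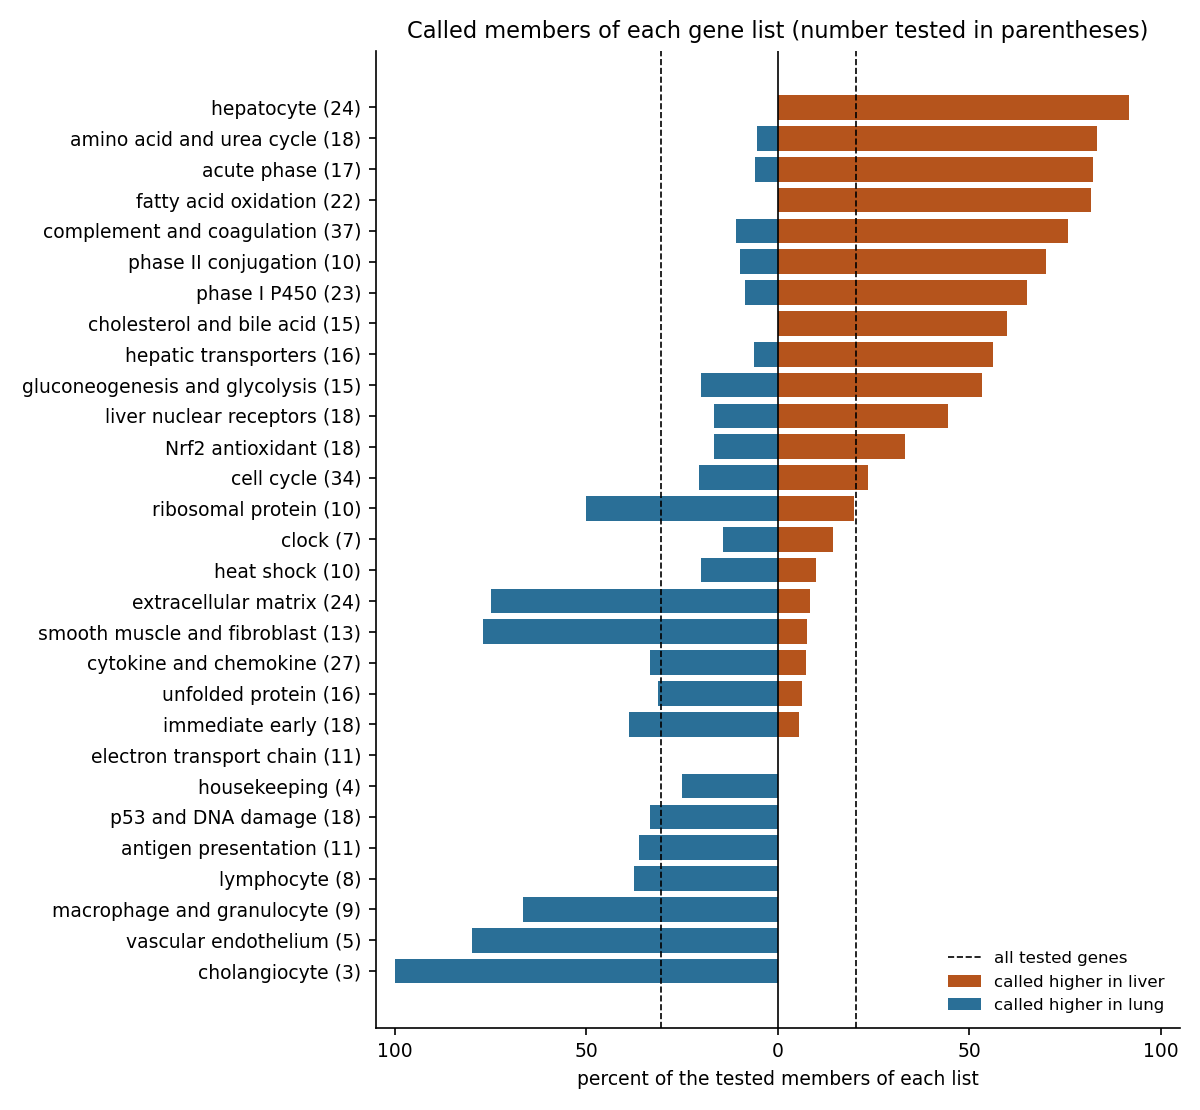
Share of the tested members of each gene list called higher in directly fixed liver (orange, right) and higher in directly fixed lung (blue, left), with the number tested in parentheses and dashed lines at the shares over all tested genes (20.5% and 30.5%). Lists with under 3 tested members are left out. Hepatocyte and metabolic lists lie to the right, and endothelial, mesenchymal, matrix and leukocyte lists lie to the left.

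Extracellular matrix genes were higher in lung for 18 of 24 tested members and higher in liver for 2, with a median of −1.98. Under all 4 scalings these were 13 and 1. Timp2, an inhibitor of matrix proteases, had 1561 to 2299 CPM in lung and 72.1 to 131 CPM in liver. Mmp2, a gelatinase, had 823 to 973 CPM and 43.2 to 83.3 CPM. Col18a1, the source of endostatin, was higher in liver, with 59.5 to 100.2 CPM against 7.01 to 37.95 CPM. Of 11 antigen presentation genes 4 were higher in lung, a share of 36.4% that was near the 30.5% of all genes. Cd74, the class II invariant chain, had 4159 to 7193 CPM in lung and 738 to 2379 CPM in liver, and RT1-Db1 of class II differed by −2.07.

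Signalling and stress genes were closer to the background. Of 27 cytokine and chemokine genes 9 were higher in lung and 2 in liver, a share of calls of 40.7% beside 51% of all genes, and neither call toward liver held under all 4 scalings. Pdgfb, a growth factor for pericytes, had 689 to 1195 CPM in lung and 16.4 to 41.6 CPM in liver, and Vegfa, the vascular growth factor, had 3495 to 7519 CPM and 363 to 860 CPM. Of 18 immediate early genes 7 were higher in lung and 1 in liver, a share of calls of 44.4%, also under that of all genes. Klf6, Dusp6 and Jun, which respond rapidly to stimuli, differed by −2.96, −2.47 and −1.66, and Fosl1 by 1.03 with overlapping groups, a call that likewise did not hold under all 4 scalings and was made in 4 of the 12 fits without 1 library.

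Of 10 heat shock genes 2 were higher in lung and 1 in liver, a share of calls of 30% beside 51% of all genes. Hspb1, a small chaperone of muscle and epithelium, had 936 to 2779 CPM in lung and 101 to 211 CPM in liver, and Hspd1, the mitochondrial chaperonin, had 1427 to 2388 CPM in liver and 434 to 746 CPM in lung. Of 18 antioxidant genes 6 were higher in liver and 3 in lung, a share of calls of 50% that was near that of all genes. Gpx1 and Mt2A were higher in liver by 2.80 and 3.93, and the extracellular enzymes Gpx3 and Sod3 were at −4.85 and −1.94. Of 18 p53 and DNA damage genes 6 were higher in lung and none in liver, with a median of −0.29 that was close to that of all genes. Their share of calls was 33.3%, against 30.5% of all genes toward lung. Of 16 unfolded protein response genes 5 were higher in lung and 1 in liver, which was Xbp1, the transcription factor of secretory cells, at 1.31 with a call that was lost with total counts. Of the 5 toward lung 3 held under all 4 scalings, and the share of calls in this list was 37.5% beside 51% of all genes. Ddit3, a stress-induced factor, differed by −2.16. Of 7 clock genes 1, Nfil3 at 1.63, was higher in liver and 1, Nr1d1, in lung, a share of calls of 28.6%.

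Cell cycle genes split, with 8 of 34 higher in liver and 7 in lung, a share of calls of 44.1% beside 51% of all genes. Cdc20 and Cdk1, which act in mitosis, had 238 to 483 CPM and 161 to 225 CPM in liver against 41.9 to 104 CPM and 31.4 to 71.5 CPM in lung. Ccnd1, the G1 cyclin, Cdkn1b, a cyclin-dependent kinase inhibitor, and Pcna, the polymerase clamp, differed by −2.07, −2.02 and −1.45. Under each of the 4 scalings 3 were higher in liver and 3 in lung, and with DESeq2 alone 15 and 3. None of 11 electron transport genes was called with edgeR, although DESeq2 called 1 toward liver and 3 had an unadjusted p under 0.05. Their log2 differences ran from −0.19 to 0.89. Of 10 ribosomal protein genes 5 were higher in lung and 2 in liver, which fell to 2 and 1 under all 4 scalings, and of 4 reference genes 1, Ywhaz, was higher in lung at −1.67. The shares of calls in these 2 lists were 70% and 25%, beside 51% of all genes.

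The same tissue comparison in frozen and frozen-then-fixed libraries shares no library with the directly fixed one. In a fit to 35 libraries and 2374 genes, 554 genes (23.3%) were higher in liver and 952 (40.1%) in lung in FR, and 492 (20.7%) and 927 (39%) in FR > FFPE. Of the 1086 genes called between directly fixed tissues, 924 (85.1%) were called in the same direction in FR, which is 61.4% of the FR calls, and 6 in the opposite direction. In FR > FFPE 833 were called in the same direction, 76.7% of the directly fixed and 58.7% of the FR > FFPE calls, and 10 in the opposite one. Across genes, which are not independent replicates, Pearson's r of the log2 difference was 0.853 with FR and 0.888 with FR > FFPE (2374 genes).

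The tissue difference spread less across genes in both fixed preparations than in FR, and least in directly fixed tissue. The standard deviation of the log2 difference across genes was 2.26 in directly fixed tissue, 3.98 in FR and 2.55 in FR > FFPE, all from the fit to 35 libraries. Of the 2131 genes tested between directly fixed tissues, 107 had 0 counts in a frozen tissue. Their fitted FR values depend on the small prior count that edgeR adds, and these standard deviations were not bounded for it. The part of depth was not tested. Genes called higher in liver in FR had a median of 3.44 in FR and of 2.11 in directly fixed tissue, and those called higher in lung had medians of −2.52 and −1.05. With genes at 0 counts in a frozen tissue set to their bound of 3 counts, the FR medians were 3.43 and −2.41. Genes chosen for a large difference in FR tend to show a smaller one in any other set of libraries, so these medians are a description.

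Relative to FR, the test of the difference called 601 genes (25.3%) with a shift toward liver and 346 (14.6%) with a shift toward lung. With DESeq2 the split was 465 and 480, so the excess toward liver rested on the scaling. Among genes higher in liver in FR, 319 had a called shift toward 0 and 1 had a called shift away from it. Among those higher in lung in FR, 525 shifted toward 0 and 6 away. Relative to FR > FFPE, 472 genes (19.9%) shifted toward liver and 216 (9.1%) toward lung. Among genes higher in liver in FR > FFPE 114 shifted toward 0 and 10 away, and among those higher in lung 317 shifted toward 0 and 39 away. These counts by direction in the reference share its libraries with the test, and choosing genes by a call there favours shifts toward 0, so they are a description. With total counts as scaling the split of these tests moved to 1022 and 227 relative to FR, and to 1118 and 40 relative to FR > FFPE.

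**Figure D4:**
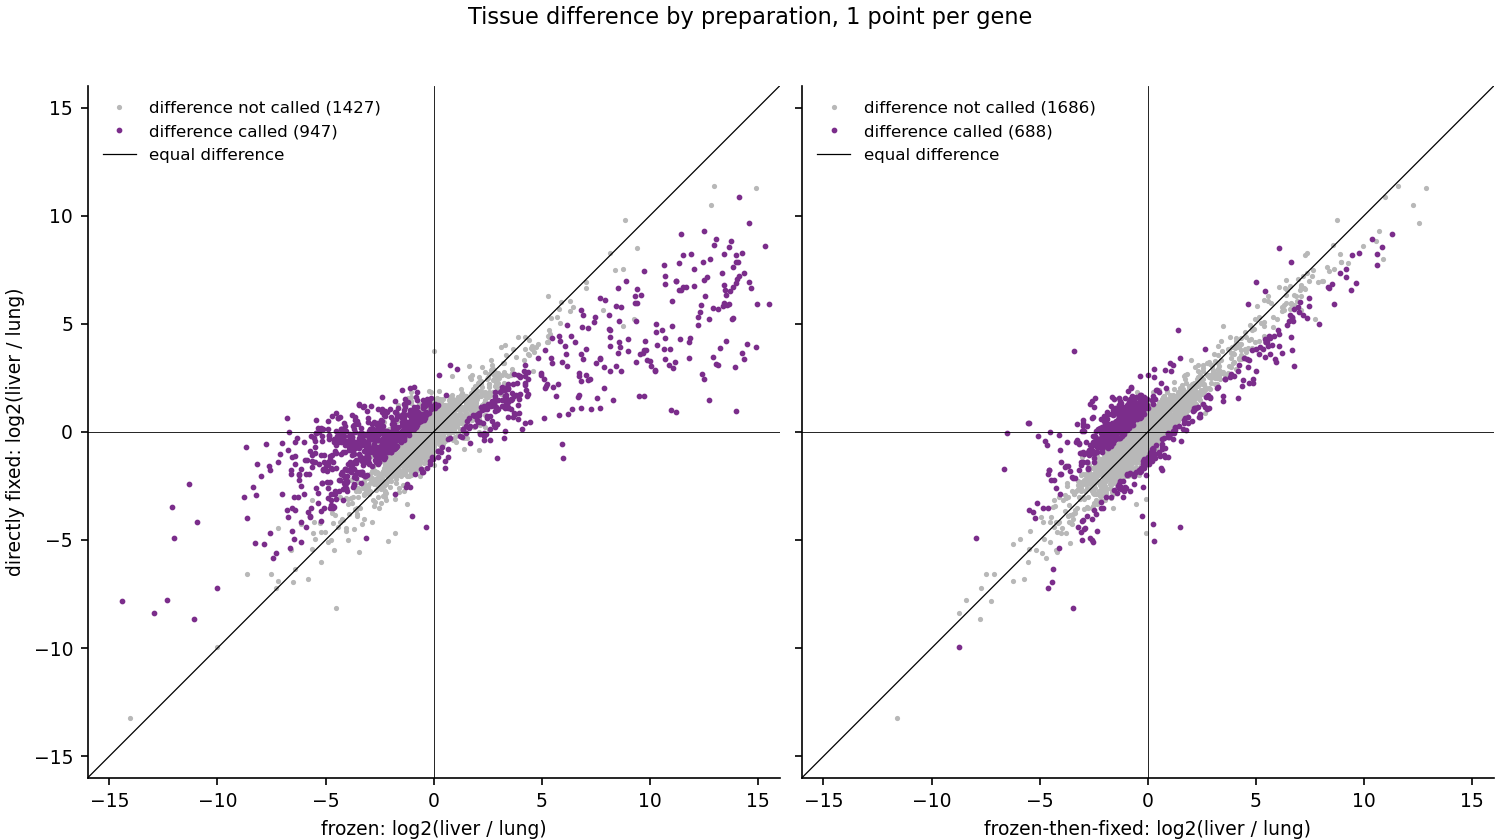
log2(liver / lung) of 2374 genes in directly fixed tissue (y axis) against that in frozen tissue (left) and in tissue frozen before fixation (right). Purple points have a called difference between the comparisons (947 left, 688 right), and the diagonal marks an equal difference. On the left, most genes with large differences in frozen tissue fall on the shallow side of the diagonal in both directions, and on the right the points lie nearer to the diagonal.

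The genes that shifted most relative to FR were at or near 0 in 1 frozen tissue. Cyp3a2, a P450 enzyme of male rat liver, had a mean of 24203 CPM in frozen liver and 1.40 CPM in frozen lung (35-library scale). In directly fixed tissue it had 2187 CPM in liver and 275 CPM in lung, so that the log2 difference shrank from 13.95 to 2.99, a shift of −10.95 ± 0.60 (edgeR adjusted p = 3.55e-18). Amy1a, an amylase, had 2380 CPM in frozen liver and no count in frozen lung, but 454 and 30.8 CPM in the directly fixed tissues. Serpina6, the cortisol carrier, had 1577 CPM and no count in frozen tissues, and 96.7 and 9.25 CPM in directly fixed ones.

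Ugt2b37, a glucuronosyltransferase, had 4696 and 0.144 CPM in frozen liver and lung, and 1049 and 84.4 CPM after direct fixation. LOC100364500 had 1257 CPM and no count in frozen tissue but 1646 and 834 CPM in directly fixed tissue, and LOC100912485 had 1087 and 0.0884 CPM against 285 and 103 CPM. In lung each of these 6 genes was also above its frozen level in FR > FFPE libraries, with 553 CPM for Cyp3a2 and 3534 CPM for LOC100364500. Where a frozen tissue had no count, the fitted shift depends on the small prior count that edgeR adds and is no bound.

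In the other direction, Lcn2 had a mean of 4023 CPM in frozen lung and 0.917 CPM in frozen liver, against 1020 and 33.0 CPM in directly fixed tissue, a shift of 7.11 ± 0.57. Grm3, a glutamate receptor, had 192 CPM in frozen lung and no count in frozen liver, and 74.6 and 15.4 CPM after direct fixation. Fam183b had 336 CPM and no count in frozen tissue, and 144 and 13.5 CPM after direct fixation. Scn3b, Grik4 and Cox8b, of nerve or muscle, were at 31.1, 16.2 and 8.35 CPM in frozen lung and without counts in frozen liver. In directly fixed liver they were at 29.9, 19.9 and 31.7 CPM, beside levels in directly fixed lung of 41.6, 25.0 and 18.5 CPM. Each gene of this paragraph was also above its frozen liver level in FR > FFPE liver. The means there ran from 3.03 CPM for Lcn2 to 16.6 CPM for Scn3b.

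Counts of genes restricted to the other tissue were then summed. Using frozen libraries alone, 65 genes had a mean of at least 10 CPM in frozen lung and under 1 CPM in each frozen liver, and 75 genes had the reverse pattern (CPM of total counts here). The frozen shares are fixed by this choice and, beside those of directly fixed tissue, are a description. In frozen liver the 65 lung-restricted genes took 0.00117% to 0.00158% of counts. In directly fixed liver they took 0.0626% to 0.310%, and 58 to 60 of the 65 had at least 1 count. The highest share was that of replicate 82, and without it the range ended at 0.171%. The median level of these genes was 8.998 to 43.0 CPM per directly fixed liver library, against 40.5 to 97.4 CPM in directly fixed lung.

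The 75 liver-restricted genes took 0.000692% to 0.00139% of counts in frozen lung and 0.295% to 0.782% in directly fixed lung, where 62 to 69 of them had a count. The highest share here was that of lung replicate 61. Lung replicate 63 was at 0.356%, near the group median of 0.345%. In their own tissue the share was 4.05% to 4.25% in directly fixed liver and 3.09% to 3.73% in frozen liver. Libraries of FR > FFPE also carried counts of the other tissue but in another proportion. Lung-restricted genes took 0.0252% ± 0.0153 of FR > FFPE liver counts and 0.139% ± 0.0917 of directly fixed liver counts (SD, n = 6 each, exact permutation test, p = 0.00216, adjusted p = 0.00216, the smallest p this design allows). Liver-restricted genes took 1.11% ± 0.195 of FR > FFPE lung counts and 0.437% ± 0.187 of directly fixed lung counts (exact permutation test, p = 0.00216, adjusted p = 0.00216). Depth and the material loaded differed with these groups, and their part in the result was not tested.

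**Figure D5:**
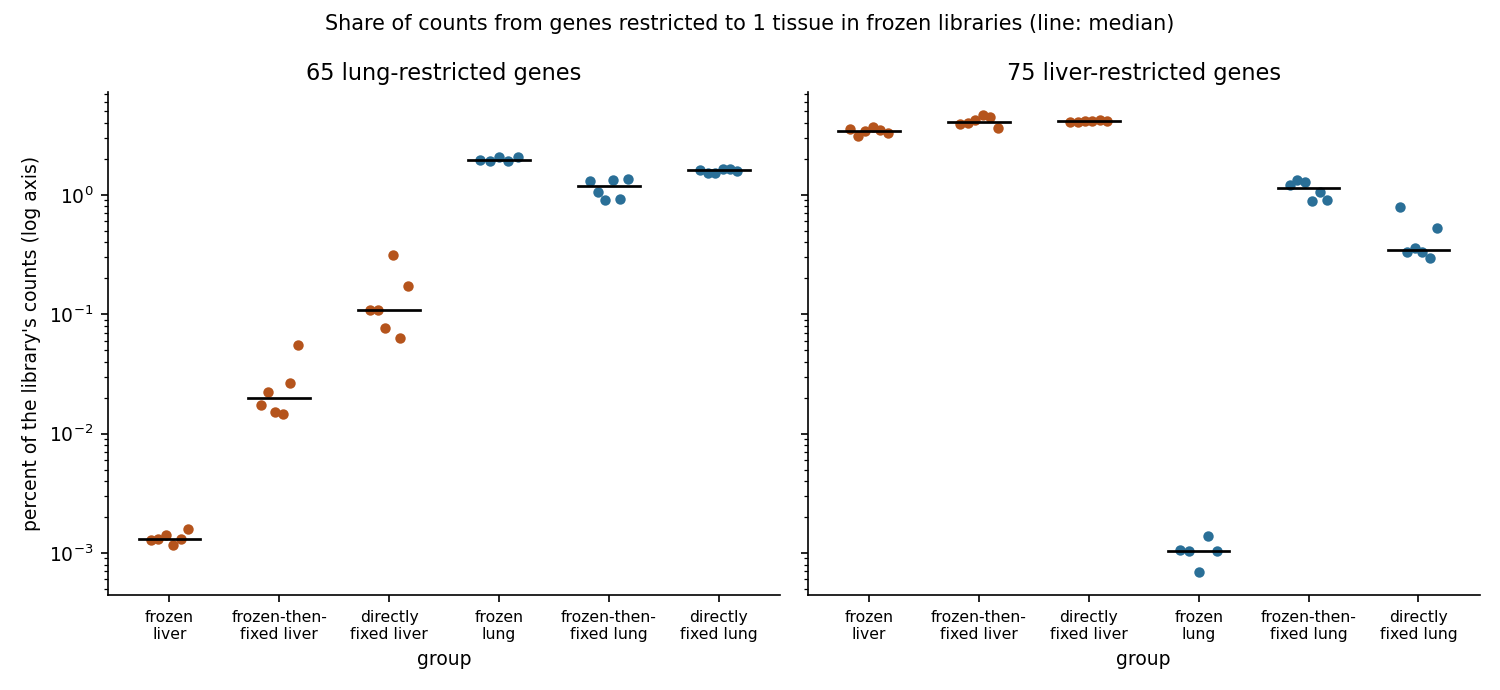
Percent of each library's counts (log axis) from 65 genes restricted to lung and 75 genes restricted to liver in frozen libraries, by group, with 1 point per library and a line at the group median. In the tissue that lacks the genes when frozen, directly fixed libraries reach 0.0626% to 0.310% (liver, left) and 0.295% to 0.782% (lung, right), while frozen libraries, which chose the genes, stay under 0.002%.

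Red cell genes differed between the preparations in another way. Hbb had a mean of 19589 CPM in frozen liver and 39496 CPM in frozen lung on the 35-library scale. In FR > FFPE it had 6790 and 8121 CPM, and in directly fixed tissue 1019 CPM in liver and 14970 CPM in lung, a shift toward lung of −3.62 ± 0.45 relative to FR > FFPE (edgeR adjusted p = 8.18e-07). Slc6a13, a GABA transporter, shifted by −3.70 ± 0.47 relative to FR > FFPE, with 124 and 14.3 CPM in directly fixed liver and lung against 375 and 3.499 CPM.

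Most of the largest shifts toward liver relative to FR > FFPE were muscle genes, and these were high in 2 of the reference libraries. Myh7, a slow myosin heavy chain, had 752 and 1301 CPM in FR > FFPE lung replicates 57 and 59 and 3.59 to 12.3 CPM in the other 4. Csrp3, Tcap, Myh6 and Pgam2, also of striated muscle, were high in the same 2 libraries. In directly fixed tissue Csrp3 ran from 27.3 to 69.98 CPM in liver and from 6.32 to 187 CPM in lung. Without these 2 libraries, an alternative added after seeing the data, the call remained for Tcap, at 2.58, and was lost for Csrp3 (1.47), Myh6 (2.39), Pgam2 (0.59) and Myh7, whose difference turned to −0.23.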

How the data were processed

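TempO-Seq had been run with the s1500+ rat panel. The authors deposited a table of estimated counts per gene for each organ, in which 7.51% of the nonzero values of the 12 directly fixed libraries were not whole (tolerance 0.001). How these counts were made from reads is not given in the sources used here. The submitters' processing notes name rn6 as the only rat build. The tables of log2 values, normalized for each organ separately, and the other files were not used.

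Counts were joined by symbol over 28756 shared genes and rounded. The 12 directly fixed libraries were fitted with edgeR 4.0.16 (R 4.3.3, TMM, filterByExpr, quasi-likelihood test, Benjamini-Hochberg adjustment). Tests of a difference used 35 libraries of 6 groups, without frozen lung replicate 54, which had 12 counts. Library measures were tested with exact two-sided permutation tests adjusted over 4 measures, and the shares of restricted genes over 2. DESeq2 1.42.0 and other scalings, filters and left-out libraries were alternatives. Named genes were the 12 largest ratios in each direction among called genes without overlap and at least 50 CPM, the 3 largest called members of each list in each direction and the 6 largest shifts in each direction of each difference test. The 35 gene lists and the comparison were chosen with earlier results of these data known. The fits were tested on simulated counts with as many genes raised as lowered, which does not test the scaling. No libraries of a group agreed within sampling noise (smallest chi-square per degree of freedom 2.56). Totals of 139477 to 1634577 counts set the precision, and counting intervals are exact Poisson intervals. Figures were drawn in Python 3.11.15. Some genes that meet the rule for named genes are not reported here.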

Additional observations from a re-analysis of the deposited data

Results flagged for a closer look

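Among the 24 genes named for the largest ratios and 4 measures per library, 56 groups of 6 were examined for a sample standing far from the rest, and 16 had one. The usual rate of about 1 in 20 groups assumes independent groups, but these genes share libraries. Hao2 and Tf were flagged on 1 and 2 lung counts, so that rate is no test here. Lung replicate 63 stood above the other lung libraries in genes of hepatocytes, at 3.503 CPM for Hao2, 52.5 for RGD1561812, 17.5 for C8a, 946 for Alb, 77.1 for Orm1, 368 for Apoc1, 448 for Fga, 196 for Apoh, 392 for Apoa1 and 7.01 for Tf. Liver replicate 82 stood below the other liver libraries for Orm1, at 4485 CPM, for Fga, at 24957 CPM, and for the share of its 10 most counted genes, at 29.0%. The other 3 were Lyz2 at 189125 CPM in lung replicate 62, Nexn at 8.37 CPM in liver replicate 81 and Ahnak at 93.7 CPM in liver replicate 84.

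The liver to lung difference of directly fixed tissue differed from that of frozen tissue in 947 genes and from that of frozen-then-fixed tissue in 688 genes, by edgeR's test of the difference itself. On the log2 scale the largest shifts relative to frozen tissue were 8.91 for Grm3, 8.60 for Fam183b, 7.99 for Scn3b, 7.403 for Cox8b, 7.20 for Grik4 and 7.11 for Lcn2. In the other direction they were −13.02 for LOC100364500, −11.28 for LOC100912485, −11.02 for Amy1a, −10.95 for Cyp3a2, −10.95 for Serpina6 and −10.61 for Ugt2b37.

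Relative to frozen-then-fixed tissue they were 7.13 for Calcoco1, 6.48 for Tcap, 5.93 for Myh6, 5.86 for Pgam2, 4.90 for Myh7 and 4.89 for Csrp3. In the other direction they were −5.89 for LOC108348085, −5.34 for Jak2, −4.71 for Pqlc3, −4.49 for LOC100910979, −3.70 for Slc6a13 and −3.62 for Hbb. Calcoco1, Jak2 and LOC100910979 had means under 10 CPM in all 4 fixed groups, so these shifts rest on few counts. The shift of LOC100910979 was called under none of the 3 other scalings, and that of Calcoco1 under 2 of them.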

How the results depend on the processing

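The count of genes called between directly fixed tissues ran from 1059 to 1146 with 1 library left out. All but 54 of 2232 values of 124 named genes kept their call, and none turned its direction. The split of the shifts depended on the scaling. With total counts, 1022 and 227 genes shifted toward liver and lung relative to frozen tissue, and 1118 and 40, 1158 in all, relative to frozen-then-fixed tissue, where totals without the genes over 1% gave 820 and 64. With all libraries thinned to equal depth and fewer genes tested, the shifts numbered 474 (248 and 226) and 353 (242 and 111), and with adjusted p alone 360 genes shifted toward lung relative to frozen-then-fixed tissue. Without the 2 muscle-rich frozen-then-fixed lung libraries, Myh7 turned to −0.23. Leaving out 1 library, the difference in total counts ran from −636656 to −355091, significant without lung replicate 63, and that in thinned gene detection from −106.5 to −66.3, which lost significance in 9 of 12 cases. The cause was not tested. No paired analysis was possible because the labels tie no liver library to a lung library. Depth limits genes under 21.5 CPM, the level of 3 counts in the shallowest liver library before TMM scaling.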

Other observations

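The counts of the 65 lung-restricted genes in directly fixed liver varied less than the totals of the libraries. They ran from 276 to 560 per library, while totals ran from 139477 to 889125 counts, and the library with the lowest total, replicate 82, had 433. In directly fixed lung, counts of the 75 liver-restricted genes ran from 808 to 5302, and totals from 226751 to 1634577. There the lowest count was in the library with the lowest total, replicate 63. In 8 genes, Alb, Apoa1, Apoh, Fetub, Fga, Fgg, Gc and Ttr, every count was a whole multiple of 1 number per gene, 9 for Alb and 7 for Apoa1 and Apoh. Dividing by it, an alternative chosen after seeing the data, gave 508 genes higher in liver and 549 in lung.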
